A study of Homo sapiens with 8 samples.

Results

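The genes of 7 solute carrier (SLC) families that carry amino acids across membranes were followed in RNA-seq libraries of 2 breast epithelial cell lines. Members were all genes whose symbol belongs to SLC1A, SLC3A, SLC6A, SLC7A, SLC36A, SLC38A or SLC43A, and 27 of the 13842 genes in the deposited table met this rule. They were 4 SLC1A, 1 SLC3A, 6 SLC6A, 5 SLC7A, 3 SLC36A, 6 SLC38A and 2 SLC43A genes. RefSeq lists 60 protein-coding genes under the same rule, and the other 33 were not analysed here. The rule used the symbol alone and no measured value. It is wider than amino acid carriers in the strict sense, since *SLC6A8* carries creatine, *SLC6A6* taurine, *SLC6A11* the transmitter GABA and *SLC43A3* purine nucleobases, while *SLC3A2* is a partner chain without a transport path of its own.

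MCF10A is an immortalised, non-tumorigenic human mammary epithelial line, and DCIS.COM is a line of the same lineage that serves as a model of ductal carcinoma in situ. Each line was stably transduced with the lentiviral vector pLOC-empty or with pLOC-*MALINC1*, which expresses the long non-coding RNA *MALINC1*, and all cells were selected with blasticidin. The 4 groups were MCF10A pLOC-empty, MCF10A pLOC-*MALINC1*, DCIS.COM pLOC-empty and DCIS.COM pLOC-*MALINC1*, with 2 libraries each and 8 in all. The comparisons asked how each gene differed between the vectors in each line, whether the 2 lines were unlike in that difference, and how the lines differed under each vector. MCF10A was grown with EGF, insulin, hydrocortisone and cholera toxin besides horse serum and DCIS.COM with horse serum alone, so line and culture medium cannot be told apart. No source used here says that the 2 libraries of a group came from separate cultures, and p-values therefore measure only the spread between these libraries, which may be technical. Separate transductions of a line with the same vector are not described either. *MALINC1* and other differences between the selected cell populations therefore cannot be told apart. A *MALINC1* response below is the difference between the vector groups of a line.

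Cells take up amino acids through carriers that differ in substrate and driving force. SLC1A carriers use the sodium gradient to bring in glutamate and aspartate or to exchange small neutral amino acids such as glutamine. SLC6A carriers use sodium and chloride, SLC38A carriers use sodium for glutamine and alanine, and SLC36A carriers use protons. SLC7A light chains pair with an SLC3A heavy chain to exchange large neutral amino acids or cystine, while some SLC7A members carry cationic amino acids without a partner. In mammary epithelium these systems supply milk protein synthesis, and in tumor cells they feed the mTORC1 kinase, nucleotide synthesis and glutathione.

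Between 20604377 and 37550457 reads per library fell on genes, and the 27 transporter genes took 0.209% to 0.274% of them. The targeted transcript *MALINC1* was at 1.07 and 1.58 CPM (read counts scaled to library size) in the MCF10A pLOC-empty libraries and at 13.3 and 11.8 CPM with pLOC-*MALINC1*. In DCIS.COM it was at 1.42 and 1.22 CPM without and 24.5 and 19.2 CPM with the *MALINC1* vector, as the labels say. Replicates of a group differed by more than counting noise, with a chi-square per degree of freedom of 3.30 to 20.6. The 7SL RNA genes *RN7SL1* and *RN7SL2* took 8.22% to 15.7% of the reads of a library. The chi-square includes these abundant genes, and its highest value was that of DCIS.COM pLOC-*MALINC1*. There they took 11.5% of the reads of the first and 8.22% of the second library. Their part in that value was not tested, so it is no measure of the general spread of that group. All 6 basal mammary markers (*KRT5*, *KRT14*, *KRT17*, *TP63*, *LAMB3*, *ITGB4*) were at 1 CPM or more in every group. Their summed level was 19689 to 19760.2 CPM in MCF10A pLOC-empty, 26477 to 27013 CPM in MCF10A pLOC-*MALINC1* and 4398 to 4588 CPM in DCIS.COM. Of 7 luminal markers 6 were in the table, summing to 1290.1 to 1656 CPM in MCF10A and 3252 to 3502 CPM in DCIS.COM. The table held 1 of 8 fibroblast markers (*COL1A1*), 1 of 6 leukocyte markers (*CD14*) and 1 of 4 endothelial markers (*PECAM1*), at sums of 1.58 to 15.9, 0.644 to 4.34 and 0.159 to 7.28 CPM.

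Summed over the 27 genes, transporter transcripts amounted to 2468 ± 12 CPM (SD, n = 2) in MCF10A pLOC-empty, 2878 ± 11.6 in MCF10A pLOC-*MALINC1*, 2097 ± 3.56 in DCIS.COM pLOC-empty and 1966 ± 19.0 in DCIS.COM pLOC-*MALINC1*. The libraries of the 4 groups did not overlap, and MCF10A with the *MALINC1* vector had the highest sum. SLC38A genes made up 963 ± 4.56 CPM of the sum in MCF10A pLOC-empty and SLC7A genes 702 ± 0.740 CPM, whereas in DCIS.COM pLOC-empty SLC7A genes reached 371 ± 8.94 CPM. The SLC1A sum went the other way between the lines, with 78.8 ± 0.589 CPM in MCF10A pLOC-empty against 232 ± 1.26 CPM in DCIS.COM pLOC-empty. In bulk RNA, fewer cells that express a gene and less of its RNA per cell cannot be told apart.

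Levels of different genes were compared only per kilobase of merged exons. On that scale the highest transporter gene in MCF10A pLOC-empty was *SLC7A5*, at 117 ± 0.48 CPM per kb, ahead of *SLC38A2* at 80.5 ± 1.7, *SLC3A2* at 54.5 ± 0.60 and *SLC38A1* at 36.4 ± 0.45 CPM per kb. In DCIS.COM pLOC-empty the leaders lay close together, with *SLC7A5* at 49.5 ± 1.3, *SLC1A5* at 48.7 ± 0.21, *SLC38A2* at 46.4 ± 2.6 and *SLC38A1* at 43.6 ± 0.24 CPM per kb. There *SLC7A5* and *SLC1A5* differed by less than the SD of *SLC7A5*, and *SLC1A5* and *SLC38A2* by less than the SD of *SLC38A2*. The same 4 genes, *SLC3A2*, *SLC7A5*, *SLC38A1* and *SLC38A2*, were among the 5 highest in all groups, also with the length of the Ensembl canonical transcript, which put *SLC3A2* first in each group at 185 CPM per kb in MCF10A pLOC-empty. With that length the order in DCIS.COM pLOC-empty was *SLC3A2* at 90.2, *SLC38A2* at 63.0, *SLC1A5* at 56.2, *SLC38A1* at 53.9 and *SLC7A5* at 51.7 CPM per kb. At the low end per kb of merged exons, *SLC36A2* was at 0.135 ± 0.050 CPM per kb in MCF10A pLOC-empty and *SLC7A2* at 0.0120 ± 0.0043 CPM per kb in DCIS.COM pLOC-empty. The place of *SLC1A3*, *SLC6A15*, *SLC36A1* and other members in the order depended on the length used.

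**Figure D1:**
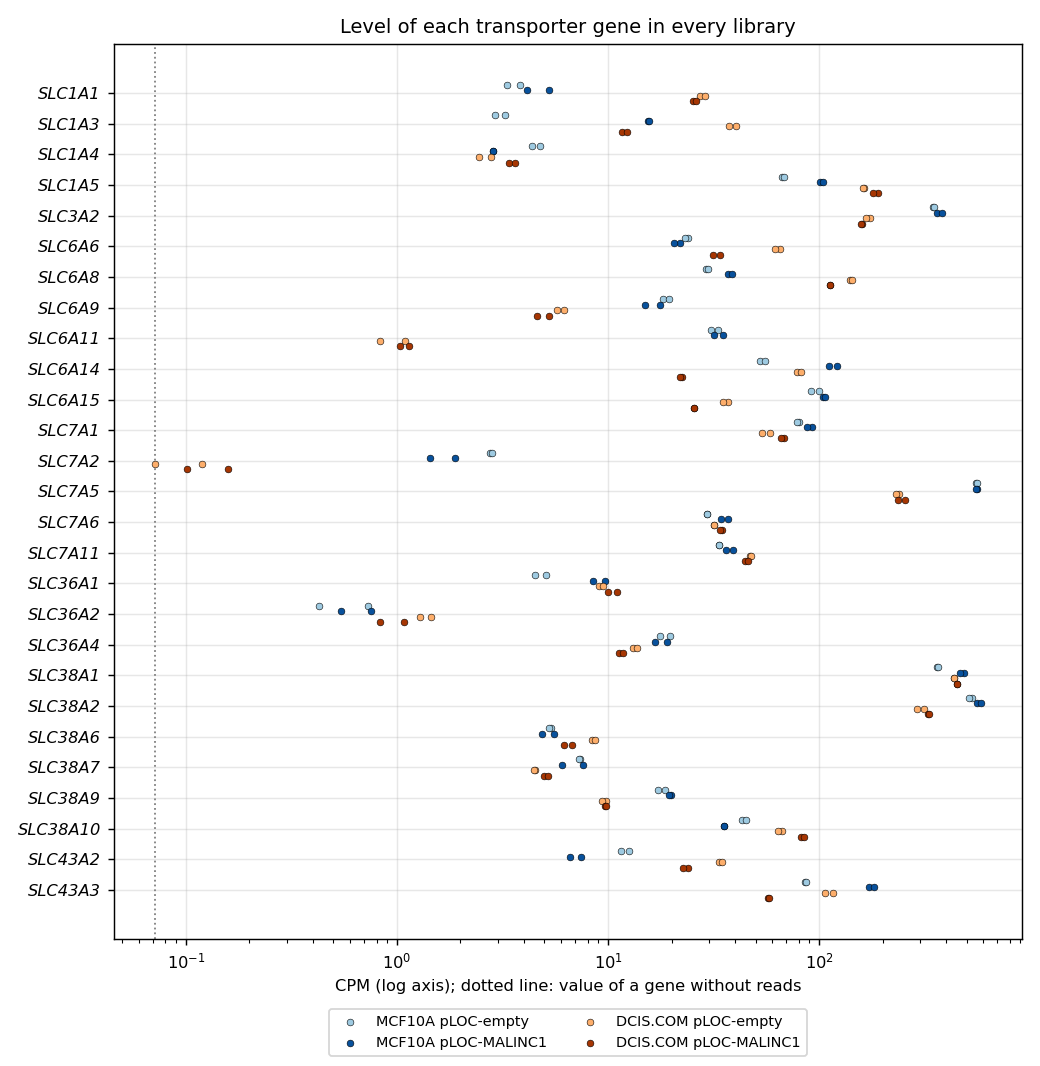
Each point is 1 library, with the level in CPM on a log axis and the 27 transporter genes in rows, colored by cell line and vector. The 2 libraries of a group lie close together for most genes, SLC7A2 drops to the level of a gene without reads in DCIS.COM, and SLC6A11 lies near 1 CPM in DCIS.COM against over 30 CPM in MCF10A.

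Few transporter genes differed by more than 2-fold between pLOC-*MALINC1* and pLOC-empty. A differentially expressed gene (DEG) had an adjusted p under 0.01 together with more than a 2-fold change, and "rose" or "fell" marks an adjusted p under 0.01 whatever the size of the change. In MCF10A 3 of the 27 members were DEGs, all higher with pLOC-*MALINC1* (*SLC1A3*, *SLC6A14* and *SLC43A3*), where 5.5% of all tested genes were DEGs, 2.99% higher and 2.51% lower. In DCIS.COM 2 members were DEGs, both lower (*SLC1A3* and *SLC6A14*), against 4.53% of all genes, 1.44% higher and 3.08% lower. Without the second DCIS.COM pLOC-empty library the count was 4, as *SLC6A6* and *SLC43A3* came past 2-fold. At any fold size 9 members rose and 3 fell in MCF10A, where 39.6% of all genes changed (21.5% and 18.1%). In DCIS.COM 3 rose and 7 fell, where 33.2% of all genes changed (16.4% and 16.7%). The median change of the 27 members in MCF10A was 0.13 on the log2 scale, beside 0 for all genes. In DCIS.COM the median of 26 members, without *SLC7A2*, was -0.0739 beside 0.00890 for all genes.

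The responses of the 2 lines were then compared by the difference of the log2 fold changes, DCIS.COM minus MCF10A. This difference passed both thresholds for 4 members, 1 positive (*SLC1A4*) and 3 negative (*SLC1A3*, *SLC6A14* and *SLC43A3*), against 9.2% of all genes, 3.98% positive and 5.22% negative. With a difference of any size it was 2 positive and 9 negative, against 35.9% of all genes (15.6% and 20.3%). DEGs of opposite direction in the 2 lines were *SLC1A3* and *SLC6A14*, 2 of 27 members, as were 0.498% of all genes. At an adjusted p below 0.01 in each line, 4 members rose in MCF10A and fell in DCIS.COM (*SLC1A3*, *SLC6A8*, *SLC6A14* and *SLC43A3*), compared with 4.2% of all genes. *SLC38A10* did the reverse, which brought the opposite changes to 5 members, compared with 7.81% of all genes. *SLC1A5*, *SLC7A1* and *SLC43A2* changed in the same direction in both lines, as did 9.39% of all genes, and 13 members passed the p threshold in neither, as did 44.4% of all genes. All 6 basal markers rose with pLOC-*MALINC1* in MCF10A. On the log2 scale *TP63* rose by 3.04 ± 0.065 (adjusted p = 1.1e-11) and *KRT14* by 1.01 ± 0.039 (adjusted p = 1.2e-09). In DCIS.COM 2 basal markers rose and 3 fell. Among 6 luminal markers 2 rose and 1 fell in MCF10A, and 2 rose and 0 fell in DCIS.COM. Of all genes 21.5% rose and 18.1% fell in MCF10A, and 16.4% rose and 16.7% fell in DCIS.COM. The part of these markers in the transporter changes was not tested.

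**Figure D2:**
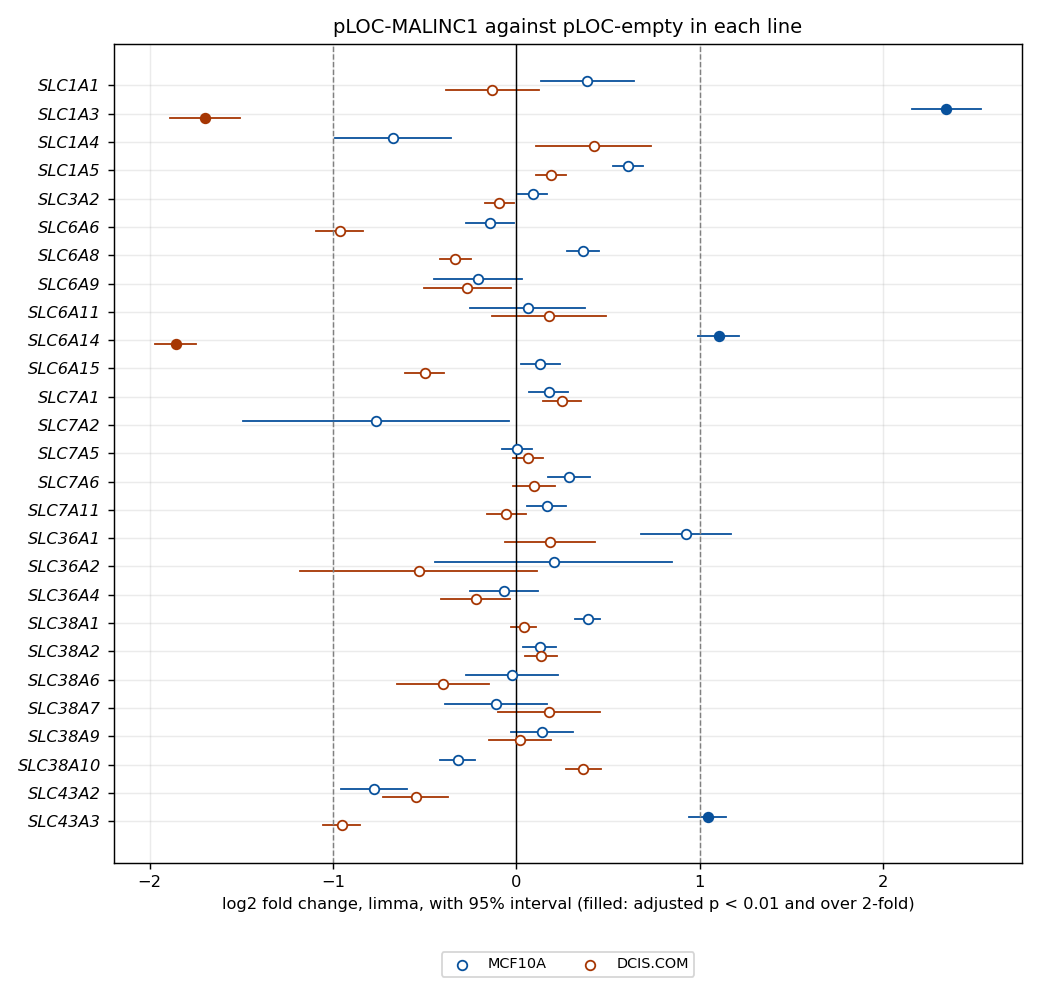
The log2 fold change of each transporter gene (pLOC-MALINC1 against pLOC-empty) is drawn with its 95% interval, in blue for MCF10A and red for DCIS.COM, with filled points for DEGs and dashed lines at 2-fold. SLC1A3 and SLC6A14 carry filled points on opposite sides of 0, SLC43A3 has a filled point on the right and an open one just inside the line on the left, and most other genes lie within 2-fold. SLC7A2 is drawn in MCF10A only, because DCIS.COM held 3 reads or fewer in each library.

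The largest fitted response in MCF10A belonged to *SLC1A3*, the glutamate and aspartate transporter of glia that also supplies aspartate to proliferating cells. The gene lies at chr5:36596690-36688436 on the plus strand of GRCh37. It was at 3.24 and 2.91 CPM in the MCF10A pLOC-empty libraries and at 15.5 and 15.7 CPM with pLOC-*MALINC1*. In DCIS.COM it was at 40.2 and 37.5 CPM with pLOC-empty and at 11.6 and 12.3 CPM with pLOC-*MALINC1*. The libraries of the 4 groups did not overlap, and both *MALINC1* groups lay between the 2 control groups. *SLC1A3* rose 5.08-fold in MCF10A (log2 2.34 ± 0.087, adjusted p = 8.1e-10) and fell 3.24-fold in DCIS.COM (log2 -1.70 ± 0.087, adjusted p = 1.4e-08). The difference between these responses was -4.04 ± 0.12 (adjusted p = 1.9e-10). Between the lines *SLC1A3* was 12.7-fold higher in DCIS.COM with pLOC-empty (log2 3.66 ± 0.087, adjusted p = 9.5e-13) and at -0.38 ± 0.087 (adjusted p = 0.0014) with pLOC-*MALINC1*. The second value missed the p threshold under 3 of 17 alternatives (-0.37 to -0.20, adjusted p up to 0.049), among them leaving out the second MCF10A or the first DCIS.COM pLOC-*MALINC1* library.

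Promoter windows of 300 bases, 250 before and 50 from an annotated start, were taken from RefSeq on GRCh38.p14 for 22 of the 27 members, 37 windows in all. No entry was matched for *SLC6A6*, *SLC6A15*, *SLC7A2*, *SLC7A11* and *SLC43A3*. The windows were searched on both strands for the AP-1 motif TGANTCA, the amino acid response motif TGATGNAA, the antioxidant response motif TGACNNNGC and the E-box CACGTG, where TGACTCAGC matches the first and the third at once. AP-1 letters stood in 7 of the 37 member windows (18.9%) and in 7.71% of all 35116 windows of that length. The amino acid response motif stood in 6 member windows (16.2%) against 3.62% of all windows. For the antioxidant motif the count was 6 (16.2%) against 13.3%, and for the E-box 4 (10.8%) against 7.26%. Windows of 1 gene can overlap, and a match describes letters, not a bound site. Shown are the windows with AP-1 letters of the DEGs of both lines, *SLC1A3* (chr5:36606704-36607003, plus strand) and *SLC6A14* (chrX:116436356-116436655, plus strand), and for contrast that of the heavy chain *SLC3A2* (chr11:62881449-62881748, plus strand), a gene that passed the p threshold in neither line. Capitals mark the motif letters. They are AP-1 matches at -128 and -26 from the start in *SLC1A3* and at -216 in *SLC6A14*, and in *SLC3A2* a joint AP-1 and antioxidant match at -37 with a reverse-strand amino acid response match at 37. Other windows of *SLC1A3*, not shown, held an amino acid response match at -220 and an antioxidant match at -196 but no AP-1 letters. AP-1 letters also stood in a window each of *SLC36A4*, *SLC38A1*, *SLC38A9* and *SLC43A2*.
SLC1A3: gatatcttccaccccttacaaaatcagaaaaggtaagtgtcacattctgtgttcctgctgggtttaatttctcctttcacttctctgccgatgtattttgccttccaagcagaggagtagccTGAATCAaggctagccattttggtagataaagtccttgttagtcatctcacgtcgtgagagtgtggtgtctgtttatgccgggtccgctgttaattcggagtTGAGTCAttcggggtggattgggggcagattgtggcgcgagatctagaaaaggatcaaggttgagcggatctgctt
SLC6A14: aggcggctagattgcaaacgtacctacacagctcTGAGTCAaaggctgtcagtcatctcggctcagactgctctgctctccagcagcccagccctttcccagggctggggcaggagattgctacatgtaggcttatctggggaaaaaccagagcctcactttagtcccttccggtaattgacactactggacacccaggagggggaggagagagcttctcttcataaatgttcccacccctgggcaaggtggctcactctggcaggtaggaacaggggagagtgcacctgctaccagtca
SLC3A2: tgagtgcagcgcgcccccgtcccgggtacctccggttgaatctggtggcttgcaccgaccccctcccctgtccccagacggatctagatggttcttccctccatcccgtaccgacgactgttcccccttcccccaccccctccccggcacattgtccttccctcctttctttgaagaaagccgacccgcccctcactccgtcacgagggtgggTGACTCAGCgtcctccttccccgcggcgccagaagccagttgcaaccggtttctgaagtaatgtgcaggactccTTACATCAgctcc

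The other SLC1A members responded less. *SLC1A1*, the neuronal and epithelial glutamate and cysteine transporter, was at 3.31 and 3.83 CPM in MCF10A pLOC-empty, 5.23 and 4.15 in MCF10A pLOC-*MALINC1*, 27.3 and 28.9 in DCIS.COM pLOC-empty and 25.3 and 25.99 in DCIS.COM pLOC-*MALINC1*. All DCIS.COM libraries lay above all MCF10A libraries. The gene was 7.88-fold higher in DCIS.COM with pLOC-empty (log2 2.98 ± 0.12, adjusted p = 9.5e-11), and its *MALINC1* response was 0.39 ± 0.12 (adjusted p = 0.015) in MCF10A and -0.13 ± 0.12 (adjusted p = 0.39) in DCIS.COM. It overlaps *SPATA6L* on the opposite strand, and without a stated strand setting the reads of both cannot be told apart. *SLC1A4* exchanges serine, alanine and cysteine. Its levels were low, at 4.76 and 4.37 CPM in MCF10A pLOC-empty and 2.86 and 2.87 with pLOC-*MALINC1*, and at 2.45 and 2.79 CPM in DCIS.COM pLOC-empty and 3.39 and 3.62 with pLOC-*MALINC1*. *SLC1A4* fell with *MALINC1* in MCF10A (log2 -0.67 ± 0.14, adjusted p = 0.0020), a call lost under 4 of 16 alternatives (-0.67 to -0.61, adjusted p up to 0.019), among them leaving out the first pLOC-empty or either pLOC-*MALINC1* library of MCF10A, whereas the DCIS.COM value of 0.42 ± 0.14 (adjusted p = 0.031) did not pass. The difference between the lines was 1.09 ± 0.20 (adjusted p = 8.2e-04), and it was under 2-fold with a pseudocount of 1 CPM (0.84) and without the first DCIS.COM pLOC-empty library (0.999).

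*SLC1A5*, the main glutamine exchanger of dividing epithelial cells, rose with *MALINC1* in both lines. Its libraries were at 67.0 and 68.1 CPM in MCF10A pLOC-empty and 101 and 105 CPM with pLOC-*MALINC1*. In DCIS.COM they were at 163 and 162 CPM with pLOC-empty and 190.1 and 179 CPM with pLOC-*MALINC1*. Each *MALINC1* library lay above the controls of its line. The rise was 1.52-fold in MCF10A (log2 0.61 ± 0.038, adjusted p = 7.2e-08) and 1.14-fold in DCIS.COM (log2 0.19 ± 0.038, adjusted p = 0.0014), a difference of -0.42 ± 0.053 (adjusted p = 3.9e-05). The DCIS.COM rise missed the p threshold under 5 of 17 alternatives (0.15 to 0.19, adjusted p up to 0.023), among them leaving out either pLOC-empty or the first pLOC-*MALINC1* library of DCIS.COM. With pLOC-empty *SLC1A5* was 2.40-fold higher in DCIS.COM (log2 1.26 ± 0.038, adjusted p = 7.5e-12).

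Among SLC6A genes the response centered on *SLC6A14*, a sodium- and chloride-driven carrier of neutral and cationic amino acids with broad specificity, at chrX:115567774-115592625 on the plus strand of GRCh37. In MCF10A it was at 52.3 and 55.7 CPM with pLOC-empty and at 121 and 111 CPM with pLOC-*MALINC1*. In DCIS.COM it went from 78.2 and 82.3 CPM to 22.4 and 21.9 CPM. None of the 4 groups overlapped, and the order of the lines turned over with the vector. The rise in MCF10A was 2.15-fold (log2 1.10 ± 0.052, adjusted p = 6.8e-09) and the fall in DCIS.COM 3.63-fold (log2 -1.86 ± 0.052, adjusted p = 7.3e-11), with a difference of -2.96 ± 0.073 (adjusted p = 5.3e-11). DCIS.COM exceeded MCF10A 1.49-fold with pLOC-empty (log2 0.57 ± 0.052, adjusted p = 3.9e-07) and was 5.24-fold lower with pLOC-*MALINC1* (log2 -2.39 ± 0.052, adjusted p = 5.2e-13).

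The taurine transporter *SLC6A6* and the creatine transporter *SLC6A8* also differed in response between the lines. *SLC6A6* was at 23.9 and 23.1 CPM in MCF10A pLOC-empty, 21.9 and 20.6 in MCF10A pLOC-*MALINC1*, 65.5 and 61.7 in DCIS.COM pLOC-empty and 33.9 and 31.4 in DCIS.COM pLOC-*MALINC1*. It fell in DCIS.COM by just under 2-fold (log2 -0.96 ± 0.059, adjusted p = 8.0e-08), and past 2-fold without the second pLOC-empty (-1.005) or the first pLOC-*MALINC1* library (-1.02). Its MCF10A value was -0.14 ± 0.059 (adjusted p = 0.059). The difference was -0.82 ± 0.084 (adjusted p = 6.3e-06). *SLC6A8* was at 29.0 and 29.9 CPM in MCF10A pLOC-empty, 37.2 and 38.5 in MCF10A pLOC-*MALINC1*, 139.8 and 143 in DCIS.COM pLOC-empty and 112 and 112 in DCIS.COM pLOC-*MALINC1*. It rose in MCF10A (log2 0.36 ± 0.039, adjusted p = 9.3e-06) and fell in DCIS.COM (log2 -0.33 ± 0.039, adjusted p = 2.3e-05), with a difference of -0.70 ± 0.056 (adjusted p = 7.6e-07). Both genes were higher in DCIS.COM with pLOC-empty, *SLC6A6* 2.71-fold and *SLC6A8* 4.80-fold.

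*SLC6A15*, *SLC6A9* and *SLC6A11* were higher in MCF10A. *SLC6A15*, which carries branched-chain amino acids and proline, was at 92.1 and 100.3 CPM in MCF10A pLOC-empty and 104 and 107 with pLOC-*MALINC1*, against 36.9 and 35.2 CPM in DCIS.COM pLOC-empty and 25.5 and 25.5 CPM in DCIS.COM pLOC-*MALINC1*. It was 2.67-fold lower in DCIS.COM with pLOC-empty (log2 -1.42 ± 0.049, adjusted p = 2.8e-11). It fell with *MALINC1* in DCIS.COM (log2 -0.50 ± 0.049, adjusted p = 4.8e-06), whereas the MCF10A value of 0.13 ± 0.049 (adjusted p = 0.040) did not pass. *SLC6A9*, a glycine transporter, was at 18.2 and 19.5 CPM in MCF10A pLOC-empty, 17.7 and 15.03 in MCF10A pLOC-*MALINC1*, 6.18 and 5.70 in DCIS.COM pLOC-empty and 4.62 and 5.27 in DCIS.COM pLOC-*MALINC1*. It was 3.17-fold lower in DCIS.COM with pLOC-empty (log2 -1.66 ± 0.11, adjusted p = 1.6e-08) and its *MALINC1* response was -0.21 ± 0.11 (adjusted p = 0.13) in MCF10A and -0.27 ± 0.11 (adjusted p = 0.064) in DCIS.COM. *CCDC24* overlaps it on the opposite strand.

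Among members with more than 3 reads in every library, the GABA transporter *SLC6A11* had the widest gap between the lines. In MCF10A it was at 30.8 and 33.2 CPM with pLOC-empty and 31.7 and 35.1 CPM with pLOC-*MALINC1*. In DCIS.COM it was at 1.10 and 0.835 CPM (22 and 16 reads) with pLOC-empty and 1.03 and 1.14 CPM (33 and 36 reads) with pLOC-*MALINC1*. Expression was 33.4-fold lower in DCIS.COM with pLOC-empty (log2 -5.06 ± 0.14, adjusted p = 4.7e-12) and 30.8-fold lower with pLOC-*MALINC1* (log2 -4.95 ± 0.14, adjusted p = 6.8e-12). The *MALINC1* response was 0.06 ± 0.14 (adjusted p = 0.75) in MCF10A, with a 95% interval of -0.25 to 0.37, and 0.18 ± 0.14 (adjusted p = 0.34) in DCIS.COM.

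Both SLC43A members changed in each line. *SLC43A3*, a facilitative purine nucleobase transporter at chr11:57174427-57195053 on the minus strand of GRCh37, was at 85.5 and 86.9 CPM in MCF10A pLOC-empty and 172 and 183 CPM with pLOC-*MALINC1*. In DCIS.COM it was at 117 and 107 CPM with pLOC-empty and 57.3 and 58.0 CPM with pLOC-*MALINC1*. As for *SLC6A14*, the groups did not overlap and the line with the higher level changed with the vector. *SLC43A3* rose 2.06-fold in MCF10A (log2 1.04 ± 0.047, adjusted p = 4.4e-09) and fell 1.94-fold in DCIS.COM (log2 -0.95 ± 0.047, adjusted p = 1.0e-08), and the difference was -1.997 ± 0.066 (adjusted p = 3.2e-10). Quantile normalization put the MCF10A rise at 0.99 and leaving out the second DCIS.COM pLOC-empty library put the fall at -1.02, on the other side of 2-fold in each case. *SLC43A2*, a facilitative carrier of large neutral amino acids, was at 11.6 and 12.5 CPM in MCF10A pLOC-empty, 6.59 and 7.48 in MCF10A pLOC-*MALINC1*, 33.7 and 34.6 in DCIS.COM pLOC-empty and 24.0 and 22.7 in DCIS.COM pLOC-*MALINC1*. *SLC43A2* fell in both lines, with a log2 change of -0.78 ± 0.081 (adjusted p = 7.0e-06) in MCF10A and -0.55 ± 0.081 (adjusted p = 1.6e-04) in DCIS.COM, and the difference of these responses was 0.23 ± 0.12 (adjusted p = 0.12). It was a DEG between the lines under both vectors, 2.84-fold and 3.33-fold higher in DCIS.COM.

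**Figure D3:**
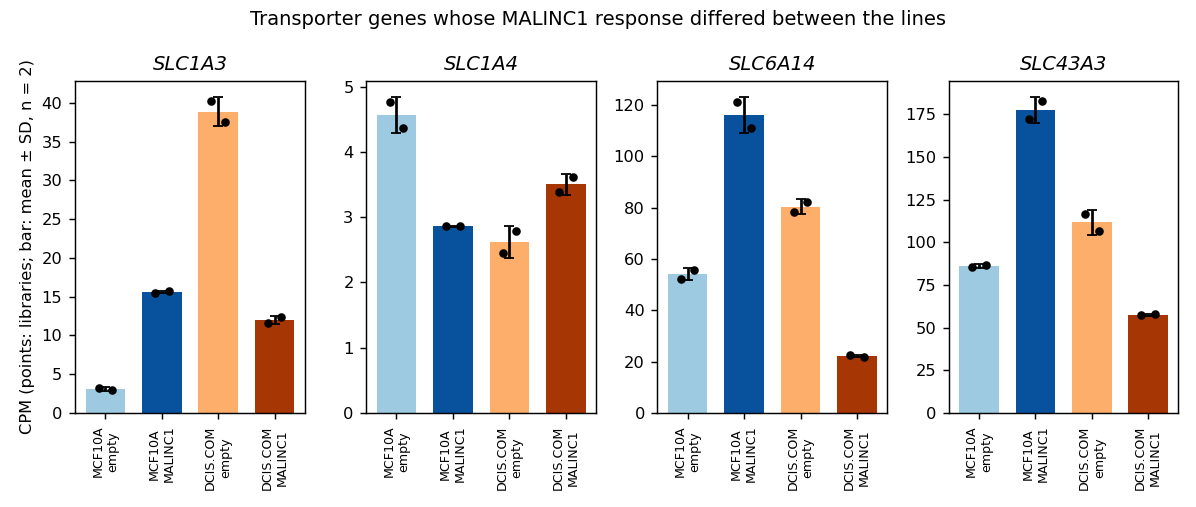
Bars give the mean CPM of the 2 libraries of each group with the SD, and points the libraries, for the 4 transporter genes whose MALINC1 response differed between the lines past both thresholds. SLC1A3, SLC6A14 and SLC43A3 go up from the first to the second bar (MCF10A) and down from the third to the fourth (DCIS.COM), and SLC1A4 has the opposite pattern at under 5 CPM.

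Of the chains of the heteromeric exchangers, *SLC3A2* and *SLC7A5* were lower and *SLC7A11* higher in DCIS.COM. None of these 3 passed the p threshold for *MALINC1*. *SLC3A2*, the heavy chain that brings SLC7A light chains to the membrane, was at 346 and 351 CPM in MCF10A pLOC-empty and 360.4 and 381 with pLOC-*MALINC1*. It was at 174 and 166 CPM in DCIS.COM pLOC-empty and 160.4 and 158 in DCIS.COM pLOC-*MALINC1*, below every MCF10A library. *SLC7A5*, its light chain for leucine and other large neutral amino acids, was at 555 and 558 CPM in MCF10A pLOC-empty and 563 and 552 with pLOC-*MALINC1*, and again all DCIS.COM libraries were lower, at 239.9 and 231 CPM with pLOC-empty and 256 and 237.6 CPM with pLOC-*MALINC1*. DCIS.COM minus MCF10A, the log2 difference of *SLC3A2* was -1.04 ± 0.036 (adjusted p = 3.1e-11) with pLOC-empty and -1.22 ± 0.036 (adjusted p = 8.2e-12) with pLOC-*MALINC1*. For *SLC7A5* it was -1.24 ± 0.038 (adjusted p = 9.5e-12) and -1.18 ± 0.038 (adjusted p = 1.8e-11). Scaling without *RN7SL1* and *RN7SL2*, which moved the median of all genes by 0.104 with pLOC-empty and by 0.179 with pLOC-*MALINC1*, put *SLC3A2* at -0.93 with pLOC-empty and *SLC7A5* at -0.997 with pLOC-*MALINC1*, under 2-fold. Quantile normalization put *SLC3A2* at -0.90 with pLOC-empty, also under 2-fold. For the *MALINC1* response the 95% intervals were -0.08 to 0.09 for *SLC7A5* and 0.01 to 0.17 for *SLC3A2* in MCF10A, and of -0.02 to 0.15 and -0.17 to -0.02 in DCIS.COM, on the log2 scale. The processed copy *SLC7A5P2* shares 129 stretches of 76 bases with *SLC7A5* (2.75% of those of *SLC7A5*) and was at 11.2 to 14.3 CPM in the 8 libraries.

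*SLC7A11*, the cystine and glutamate exchanger that supplies glutathione synthesis, was at 33.5 and 33.7 CPM in MCF10A pLOC-empty, 39.2 and 36.3 in MCF10A pLOC-*MALINC1*, 46.8 and 47.4 in DCIS.COM pLOC-empty and 44.7 and 46.1 in DCIS.COM pLOC-*MALINC1*. Its *MALINC1* response was 0.17 ± 0.050 (adjusted p = 0.014) in MCF10A and -0.05 ± 0.050 (adjusted p = 0.40) in DCIS.COM, and with pLOC-empty it was 1.40-fold higher in DCIS.COM (log2 0.49 ± 0.050, adjusted p = 1.2e-06). *SLC7A1*, the cationic amino acid carrier of most cells, was at 80.8 and 78.4 CPM in MCF10A pLOC-empty, 92.4 and 87.5 in MCF10A pLOC-*MALINC1*, 58.7 and 53.9 in DCIS.COM pLOC-empty and 67.9 and 65.8 in DCIS.COM pLOC-*MALINC1*. It rose with *MALINC1* by 0.18 ± 0.048 (adjusted p = 0.0084) in MCF10A and 0.25 ± 0.048 (adjusted p = 0.0011) in DCIS.COM. In MCF10A this call was lost under 10 of 17 alternatives (0.12 to 0.22, adjusted p up to 0.081), among them leaving out any 1 of the 4 MCF10A libraries or of the 2 DCIS.COM pLOC-*MALINC1* libraries. In DCIS.COM it was lost under 4 of 17 (0.19 to 0.25, adjusted p up to 0.022), among them leaving out the second pLOC-empty or the first pLOC-*MALINC1* library. *SLC7A6*, a light chain for exchange of cationic and neutral amino acids, had group means of 29.3 CPM in MCF10A pLOC-empty, 35.8 in MCF10A pLOC-*MALINC1*, 31.9 in DCIS.COM pLOC-empty and 34.2 in DCIS.COM pLOC-*MALINC1*. It rose in MCF10A (0.29 ± 0.052, adjusted p = 6.3e-04) and was at 0.10 ± 0.052 (adjusted p = 0.15) in DCIS.COM. The rise missed the p threshold in the fit of the MCF10A groups alone (adjusted p = 0.016) and without the second MCF10A pLOC-*MALINC1* library (0.23). Between the lines *SLC7A6* passed the p threshold under neither vector (0.12 ± 0.052, adjusted p = 0.048 with pLOC-empty and -0.07 ± 0.052, adjusted p = 0.26 with pLOC-*MALINC1*). *SLC7A6OS* overlaps it on the opposite strand.

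*SLC7A2*, the second cationic amino acid carrier in the table, had 0 to 3 reads in each DCIS.COM library. The MCF10A libraries held 78 and 62 reads with pLOC-empty and 65 and 36 with pLOC-*MALINC1*, whereas the DCIS.COM libraries held 0 and 1 with pLOC-empty and 3 and 1 with pLOC-*MALINC1*. With reads scaled to the library sizes behind the CPM values, the MCF10A level was 115 times that of DCIS.COM with pLOC-empty (95% exact counting interval 20.3 to 4576) and 27.6 times with pLOC-*MALINC1* (10.5 to 103). These intervals cover counting error only. In MCF10A the *MALINC1* response was -0.76 ± 0.33 (adjusted p = 0.071), and none is given for DCIS.COM, where both groups were at the floor.

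*SLC38A1* and *SLC38A2*, neighboring genes on chromosome 12 that lie 88.2 kb apart on GRCh37 and encode sodium-driven carriers of glutamine and alanine, were among the most abundant members. *SLC38A1* was at 361 and 368 CPM in MCF10A pLOC-empty, 486 and 468 in MCF10A pLOC-*MALINC1*, 435 and 438 in DCIS.COM pLOC-empty and 448 and 449 in DCIS.COM pLOC-*MALINC1*. The MCF10A controls were the lowest libraries and did not overlap the others. *SLC38A1* rose in MCF10A (0.39 ± 0.031, adjusted p = 7.3e-07) and was at 0.04 ± 0.031 (adjusted p = 0.31) in DCIS.COM, a difference of -0.35 ± 0.044 (adjusted p = 4.1e-05). *SLC38A2* was at 532 and 516 CPM in MCF10A pLOC-empty, 557 and 586 in MCF10A pLOC-*MALINC1*, 290.4 and 314 in DCIS.COM pLOC-empty and 329.6 and 333 in DCIS.COM pLOC-*MALINC1*. It was lower in DCIS.COM under both vectors (log2 -0.79 ± 0.041, adjusted p = 1.3e-09 with pLOC-empty) and its *MALINC1* response was 0.13 ± 0.041 (adjusted p = 0.020) in MCF10A and 0.13 ± 0.041 (adjusted p = 0.017) in DCIS.COM.

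*SLC38A10*, a Golgi-associated member of the family, moved in opposite directions in the lines. It was at 43.3 and 45.2 CPM in MCF10A pLOC-empty, 35.5 and 35.3 in MCF10A pLOC-*MALINC1*, 66.4 and 63.7 in DCIS.COM pLOC-empty and 82.5 and 85.2 in DCIS.COM pLOC-*MALINC1*. No groups overlapped, and *SLC38A10* fell in MCF10A (-0.32 ± 0.044, adjusted p = 6.3e-05) and rose in DCIS.COM (0.37 ± 0.044, adjusted p = 2.6e-05), a difference of 0.69 ± 0.062 (adjusted p = 2.1e-06). *SLC38A9*, the lysosomal arginine sensor upstream of mTORC1, was at 17.3 and 18.5 CPM in MCF10A pLOC-empty, 19.9 and 19.5 in MCF10A pLOC-*MALINC1*, 9.82 and 9.38 in DCIS.COM pLOC-empty and 9.65 and 9.80 in DCIS.COM pLOC-*MALINC1*. Its difference between the lines was -0.90 ± 0.077 (adjusted p = 2.2e-07) with pLOC-empty and -1.02 ± 0.077 (adjusted p = 6.9e-08) with pLOC-*MALINC1*, and only the second was a DEG, which a pseudocount of 1 CPM (-0.95) and scaling without *RN7SL1* and *RN7SL2* (-0.84) moved under 2-fold. *SLC38A6* and the lysosomal glutamine carrier *SLC38A7* were at group means of 4.48 to 8.52 CPM and passed the p threshold for *MALINC1* in neither line.

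The proton-driven SLC36A carriers were scarce. *SLC36A1*, a lysosomal exporter of small neutral amino acids, had group means of 4.78 CPM in MCF10A pLOC-empty, 9.08 in MCF10A pLOC-*MALINC1*, 9.25 in DCIS.COM pLOC-empty and 10.5 in DCIS.COM pLOC-*MALINC1*. It rose 1.90-fold in MCF10A (log2 0.92 ± 0.11, adjusted p = 2.3e-05), past 2-fold when either second MCF10A library was left out (1.01 and 1.02), and the difference between the lines was -0.74 ± 0.16 (adjusted p = 0.0020). That difference missed the p threshold without the first MCF10A (-0.65) or the second DCIS.COM pLOC-*MALINC1* library (-0.67). *SLC36A2* held between 8 and 34 reads per library, at 0.726 and 0.425 CPM in MCF10A pLOC-empty, 0.545 and 0.751 in MCF10A pLOC-*MALINC1*, 1.28 and 1.46 in DCIS.COM pLOC-empty and 0.829 and 1.08 in DCIS.COM pLOC-*MALINC1*. It was a DEG between the lines with pLOC-empty (1.30 ± 0.30, adjusted p = 0.0014), a call lost under 4 alternatives, among them leaving out the second pLOC-empty library of MCF10A (0.91) or DCIS.COM (1.21). *SLC36A4* was at group means of 11.6 to 18.7 CPM, and its *MALINC1* response was -0.07 ± 0.086 (adjusted p = 0.54) in MCF10A and -0.22 ± 0.086 (adjusted p = 0.053) in DCIS.COM on the log2 scale.

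More transporter genes were DEGs between the lines than between the vectors. With pLOC-empty 7 members were higher and 6 lower in DCIS.COM as DEGs, against 28.6% of all genes, 15.6% higher and 13% lower. With pLOC-*MALINC1* 4 were higher and 9 lower, against 26.6% of all genes, 14.4% higher and 12.2% lower. At any fold 26 of 27 members differed with pLOC-empty (14 higher, 12 lower) where 73.9% of all genes did (37.9% and 36%), and 21 with pLOC-*MALINC1* (7 higher, 14 lower) where 73% did (35.7% and 37.2%). The counts include *SLC7A2*, whose fitted fold rests on at most 3 reads per DCIS.COM library. On the log2 scale the members' median gap of DCIS.COM to MCF10A was 0.26 with pLOC-empty and -0.38 with pLOC-*MALINC1*, also with *SLC7A2* set at the near end of its counting interval, beside 0.0311 and 0.00550 for all genes. The members that were DEGs under both vectors numbered 9, beside 20.4% of all genes, with *SLC1A1*, *SLC6A8* and *SLC43A2* higher and *SLC3A2*, *SLC6A9*, *SLC6A11*, *SLC6A15*, *SLC7A2* and *SLC7A5* lower in DCIS.COM. These line comparisons share their libraries with the vector comparisons. The summed basal markers were lower in DCIS.COM (4 of 6 genes lower and 2 higher under each vector at an adjusted p under 0.01) and the summed luminal markers higher (3 of 6 genes higher with pLOC-empty and 5 with pLOC-*MALINC1*), and their part in the line differences was not tested.

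**Figure D4:**
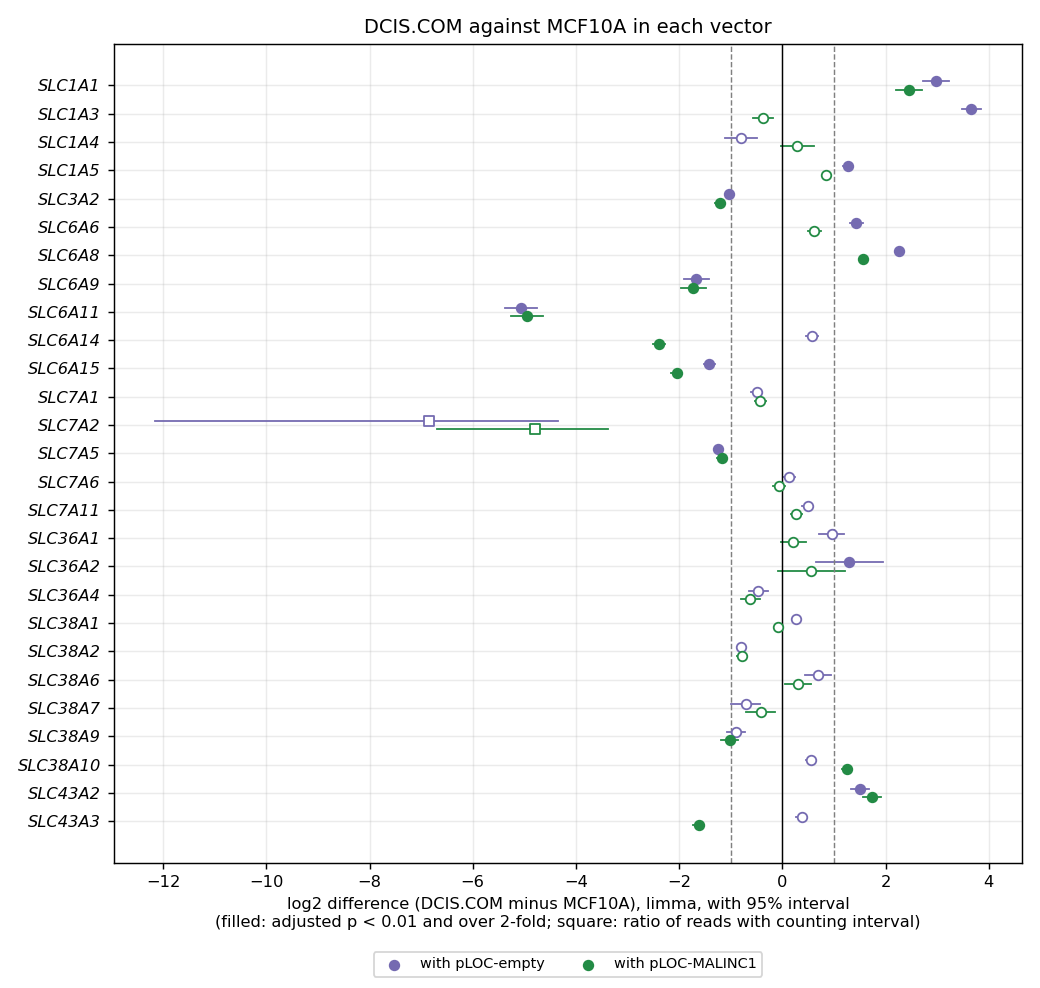
The log2 difference of each transporter gene between the lines (DCIS.COM minus MCF10A) is drawn with its 95% interval, in purple for pLOC-empty and green for pLOC-MALINC1, with filled points for DEGs and dashed lines at 2-fold. SLC6A11 lies near -5 under both vectors, SLC1A3, SLC6A14 and SLC43A3 shift from right to left with pLOC-MALINC1, and SLC7A2 is drawn as squares from the ratio of reads with its wide counting interval.

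Genes that make, break down or respond to amino acids were counted beside the transporters, from lists described with the methods. Of 18 other amino acid and peptide transporters 13 were in the table, and the peptide carrier *SLC15A2* was the only DEG for *MALINC1*, lower in MCF10A (4.54 ± 0.310 against 1.72 ± 0.0129 CPM, log2 -1.40 ± 0.14, adjusted p = 4.0e-06). Its response differed between the lines by 1.75 ± 0.19 (adjusted p = 1.2e-05). Of 24 genes of the amino acid deprivation response 23 were in the table, and 1 of them was a DEG for *MALINC1*. That was *TRIB3*, a pseudokinase induced through ATF4, which rose from 22.1 ± 1.49 to 49.5 ± 0.716 CPM in MCF10A (log2 1.16 ± 0.053, adjusted p = 5.6e-09). For *TRIB3*, *STC2* and *VLDLR* the difference between the lines passed both thresholds, at -1.74 ± 0.075 (adjusted p = 2.8e-09), -1.61 ± 0.076 (adjusted p = 5.9e-09) and -1.04 ± 0.15 (adjusted p = 1.0e-04). At any fold 9 of the 23 genes rose and 5 fell in MCF10A, beside 21.5% and 18.1% of all genes. In DCIS.COM 5 rose and 10 fell, beside 16.4% and 16.7% of all genes. DEGs made up 5.5% of all genes in MCF10A, 4.53% in DCIS.COM and 9.2% for the difference between the lines.

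Of 40 enzymes of amino acid synthesis and breakdown 33 were in the table, and 3 were DEGs in MCF10A, all higher, and 4 in DCIS.COM, all lower. Of all genes 2.99% were higher and 2.51% lower as DEGs in MCF10A, and 1.44% higher and 3.08% lower in DCIS.COM. The enzyme DEGs of MCF10A were *PRODH*, which opens proline breakdown (log2 2.15 ± 0.30, adjusted p = 6.8e-05), *CBS*, which commits homocysteine to cysteine synthesis (log2 1.26 ± 0.15, adjusted p = 2.5e-05), and *ODC1*, the first enzyme of polyamine synthesis (log2 1.05 ± 0.037, adjusted p = 4.9e-10). *PRODH* was at 0.536 ± 0.219 CPM in MCF10A pLOC-empty. In DCIS.COM the largest falls were *KYNU* of tryptophan breakdown, from 50.2 ± 0.559 to 7.04 ± 0.799 CPM (log2 -2.84 ± 0.067, adjusted p = 1.6e-11), glutamine synthetase *GLUL*, from 300.5 ± 17.3 to 85.6 ± 1.37 CPM (log2 -1.81 ± 0.040, adjusted p = 9.0e-12), and the aspartate aminotransferase *GOT1* (log2 -1.37 ± 0.043, adjusted p = 2.1e-10). The difference between the lines was negative past both thresholds for 7 enzymes, as it was for 5.22% of all genes. The largest were those of *KYNU* (-2.97 ± 0.095, adjusted p = 2.6e-10), *CBS* (-2.04 ± 0.22, adjusted p = 9.1e-06) and *PRODH* (-1.96 ± 0.42, adjusted p = 0.0020). At any fold 12 enzymes rose and 4 fell in MCF10A, and 4 rose and 14 fell in DCIS.COM, beside 21.5% of all genes rising and 18.1% falling in MCF10A and 16.4% and 16.7% in DCIS.COM.

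**Figure D5:**
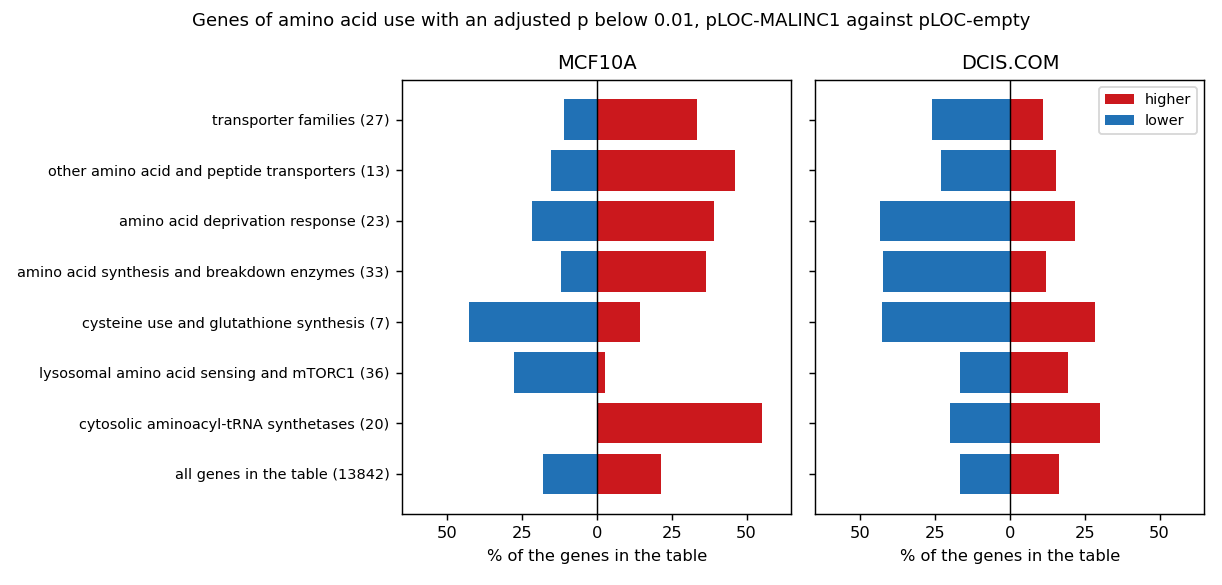
Bars give the percentage of the genes of each list in the table that rose (red, right) or fell (blue, left) with pLOC-MALINC1 at an adjusted p below 0.01, for MCF10A and DCIS.COM, with all 13842 genes in the bottom row. For the transporter families (27 genes) and the synthesis and breakdown enzymes (33 genes) the red bar is the longer one in MCF10A and the blue bar in DCIS.COM. The other transporters, the deprivation response and, by a small margin, all genes have the same pattern.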

How the data were processed

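RNA-seq of 8 libraries (2 per cell line and vector) was analysed from 1 table of gene values. Per the study's methods, total RNA was isolated with RNeasy kits, libraries were made with ScriptSeq v2 and read as 76 nt pairs on a HiSeq2000, reads were aligned to hg19 with Rsubread, and featureCounts assigned them to UCSC KnownGene genes. The authors deposited log2 CPM from edgeR for 13842 genes. Strand setting, versions and the filter on low values are not given in the sources used here. Back-transformed values gave whole reads for 100% of values within 0.05 reads, with 0 reads equal to 0.0713 CPM, so fold changes of genes with few reads are understated.

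The log2 CPM as deposited were fitted with limma 3.58.1 (R 4.3.3) over the 4 group means with a mean-variance trend, 5 contrasts were tested, and p-values were adjusted by Benjamini-Hochberg over all 13842 genes. Values are log2 differences ± SE. A filter of 0.5 CPM in 2 libraries kept every gene. This took the place of the study's own count test because the table holds log2 CPM. On simulated data of 13842 genes with 200 changed by 1.5 (log2) in each line, 100% were found in MCF10A and 100% in DCIS.COM, with 1 wrong call in each, and 381 of 400 for the difference between the lines. The simulation gave all genes and groups the same dispersion and changed only genes with a mean of 1 CPM or more. Its rates therefore do not carry over to scarcer members, smaller changes or groups of wider spread. Of the 19 alternatives 8 left out a library.

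The members and gene lists were chosen with earlier results of these data known. A member was described with its value in every library if it was a DEG in any contrast, reached 50 CPM in any group, or was *SLC3A2*, *SLC7A5* or *SLC7A11*, and the other 5 by group means. From the other lists at most 3 DEGs per direction and contrast were named, and markers were given where a result touched them. The lists held other amino acid and peptide transporters, the amino acid deprivation response, synthesis and breakdown enzymes, cysteine use and glutathione synthesis, amino acid sensing by mTORC1 and cytosolic tRNA synthetases. Gene lengths and coordinates came from GENCODE v44lift37 (GRCh37), and promoter windows from RefSeq (GRCh38.p14).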

Additional observations from a re-analysis of the deposited data

Results flagged for a closer look

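The *MALINC1* response differed between the lines for 4 members by the test of the difference itself (limma, DCIS.COM minus MCF10A on the log2 scale). The values were -4.04 ± 0.12 (adjusted p = 1.9e-10) for *SLC1A3*, -2.96 ± 0.073 (adjusted p = 5.3e-11) for *SLC6A14*, -1.997 ± 0.066 (adjusted p = 3.2e-10) for *SLC43A3* and 1.09 ± 0.20 (adjusted p = 8.2e-04) for *SLC1A4*. In the first 3 genes both MCF10A libraries with pLOC-*MALINC1* lay above both of their controls and both DCIS.COM libraries lay below theirs. For *SLC1A4* the directions were the reverse, at levels under 5 CPM. Groups of 2 libraries allow no check for a single library far from the others.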

How the results depend on the processing

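Counts of members called stayed within 1.5 times the reported ones under the 19 alternatives, apart from dropping the fold limit and leaving out 1 library. Without the fold limit they were 12 for *MALINC1* in MCF10A, 10 in DCIS.COM, 11 for the difference between the lines, 26 between the lines with pLOC-empty and 21 with pLOC-*MALINC1*. When single libraries were left out, the count for *MALINC1* in DCIS.COM ranged from 2 to 4, with 4 reached without the second DCIS.COM pLOC-empty library. The filter that kept every gene was the same as no filter. The fit of only the groups compared could not be run for the difference between the lines, which needs all 4 groups. With the replicate number as a block (replicate block) the 5 counts were 3, 2, 4, 13 and 13, as without it. The labels share numbers but do not say that a number marks a batch, and correlations of the deviations of same-numbered libraries ran from -0.131 to 0.116. Using the length of the canonical transcript, chosen after seeing the data, left 4 members among the 5 highest per kb in all groups.

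For single members the direction turned 27 times in 2253 refitted values, each time at an adjusted p of 0.0126 or more, and the cause was not tested. Quantile normalization turned *SLC7A5* (-0.0720) and *SLC38A6* (0.0406) for *MALINC1* in MCF10A, and *SLC7A6* (0.0306), *SLC36A2* (-0.0652) and *SLC38A1* (0.0889) between the lines with pLOC-*MALINC1*. Scaling without *RN7SL1* and *RN7SL2* turned *SLC6A9* (0.0152) for the difference between the lines, *SLC7A5* (-0.0374) for *MALINC1* in MCF10A, and *SLC7A6* (0.114) and *SLC38A1* (0.0929) between the lines with pLOC-*MALINC1*. With single libraries left out, values for *MALINC1* in MCF10A ranged from -0.0139 to 0.136 for *SLC6A11*, -0.0123 to 0.0175 for *SLC7A5*, -0.183 to 0.589 for *SLC36A2*, -0.158 to 0.0236 for *SLC36A4*, -0.116 to 0.0664 for *SLC38A6* and -0.277 to 0.0535 for *SLC38A7*. In DCIS.COM they ranged from -0.0193 to 0.375 for *SLC6A11* and -0.0138 to 0.0521 for *SLC38A9*. For the difference between the lines they ranged from -0.174 to 0.0576 for *SLC6A9*, -0.0802 to 0.314 for *SLC6A11* and -0.0490 to 0.0637 for *SLC38A2*. Groups of 2 libraries limit the precision of all values, and below about 1 CPM a value rests on few reads.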

Other observations

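Genes of cytosolic tRNA charging, which load amino acids onto tRNAs, rose with *MALINC1* in MCF10A for 11 of 20 members of the list (21.5% of all genes rose). In DCIS.COM 6 rose and 4 fell, beside 16.4% and 16.7% of all genes. Of 36 genes of amino acid sensing by the mTORC1 kinase, 1 rose and 10 fell in MCF10A, beside 21.5% and 18.1% of all genes. In DCIS.COM 7 rose and 6 fell, beside 16.4% and 16.7% of all genes. Of 10 genes listed for cysteine use and glutathione synthesis 7 were in the table. In MCF10A 1 of them rose and 3 fell, and in DCIS.COM 2 rose and 3 fell, beside the same shares of all genes. The response of 1 gene on this list, the glutathione reductase gene *GSR*, differed between the lines past both thresholds, as did 9.2% of all genes. The difference was 1.23 ± 0.049 (adjusted p = 1.3e-09) on the log2 scale.

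*SLC6A10P*, a copy of the creatine transporter gene *SLC6A8*, shares 80 stretches of 76 bases with it (1.29% of those of *SLC6A8*). The copy was higher in DCIS.COM, as was *SLC6A8*, by 2.48 ± 0.27 with pLOC-empty and 1.58 ± 0.27 with pLOC-*MALINC1* on the log2 scale. *SLC7A6OS*, which overlaps *SLC7A6* on the opposite strand by 17321 bases, had *MALINC1* values of -0.07 ± 0.13 (adjusted p = 0.69) in MCF10A and 0.40 ± 0.13 (adjusted p = 0.026) in DCIS.COM.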
